A study of Homo sapiens with 18 samples.

Results

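Hyaluronan is a long, unbranched sugar polymer of the space between cells. It is made at the cell membrane by the hyaluronan synthases HAS1, HAS2 and HAS3, which join sugars activated in the cytosol and push the growing chain outwards. The receptor CD44 binds the chain at the cell surface, HMMR (also called RHAMM) binds it and also sits on the mitotic spindle, and the enzyme HYAL2 and the protein CEMIP (also called KIAA1199) take part in cutting it into pieces. In breast cancer the polymer and CD44 are known for their part in adhesion, migration and stem-like states.

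HAS2, HAS3, CD44, HMMR, HYAL2 and CEMIP were the 6 genes described here, of 20046 genes whose probes carry a single symbol. All array probes annotated to them under a current or older symbol were taken, which gave 15 probes of 47231. The group was chosen by function around HAS2, and HAS2 was picked for its fall in MDA-MB-231, so its response in that line is a description and carries no test. HAS1 had no probe under its symbol. RNA was measured on 18 Illumina bead arrays, 9 from MDA-MB-231 and 9 from MDA-MB-468, both established lines of triple-negative breast cancer. Cells of each line were left untreated, given the vehicle DMSO, or given OTX015, and were collected at 4, 8 and 24 h, with 1 array per line, treatment and time. OTX015 (MK-8628) is a small molecule that keeps BET bromodomain proteins off acetylated histones, and the dose was 75 nM for MDA-MB-231 but 650 nM for MDA-MB-468, so line and dose cannot be told apart in any comparison of the 2 responses.

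The 3 times of a treatment served as its samples (n = 3), and nothing in the labels says that they came from separate cultures, so p-values reflect only how far these arrays scatter, which may be technical. Levels are log2 signals after background correction and quantile normalization. Each array had a floor, the signal that 95% of its olfactory receptor probes stayed under, which lay between 6.31 and 6.46. A probe was tested where it passed the floor on at least 3 of 18 arrays, which 23631 probes did, and a change was called where limma gave a p of at most 0.05 after Benjamini-Hochberg adjustment, with a log2 change of at least 0.5. Mean array intensities were 316 to 409 for MDA-MB-231 arrays and 174 to 503 for MDA-MB-468 arrays, of which the OTX015 array of 8 h was the dimmest. The undrugged 4 h arrays of MDA-MB-468 also stood apart. Between 24 and 4 h without drug 3127 probes (13.2%) were called in MDA-MB-468 but just 175 (0.741%) in MDA-MB-231. Between 24 and 8 h the counts were 242 and 3 probes. The labels of the lines held against most listed markers, though not all. The epithelial cadherin gene CDH1 was at least 22.0-fold higher in MDA-MB-468, where it was above the floor on all 6 undrugged arrays against 0 of 6 in MDA-MB-231, and the mesenchymal filament gene VIM was lower by a log2 difference of -4.38. The epithelial genes KRT18 and CLDN4 went the other way. They averaged 7.96 and 6.46 in undrugged MDA-MB-231 against 7.51 and 6.38 in MDA-MB-468, with CLDN4 near the floor. The other tested epithelial and mesenchymal markers went with the labels on their brightest probe. The mesenchymal markers SPARC and FN1 did not pass the floor on enough arrays to be tested in either line.

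Of the 15 probes, 10 passed the floor filter. HAS2 had 4 probes and 2 were tested, HYAL2 had 3 and 1 was tested, HAS3 had 2 and 1 was tested, and all 3 probes of CD44, both of HMMR and the single one of CEMIP were tested. The filter could be met through 1 line alone. CEMIP was above the floor on all 9 MDA-MB-231 arrays and on 0 of 9 MDA-MB-468 arrays. The brighter HAS2 probe passed on all 9 MDA-MB-231 arrays and on 1 of 9 MDA-MB-468 arrays, and the dimmer HAS2 probe passed on 7 arrays, all of MDA-MB-231. The 5 probes left out stayed near or under the floor, with signals from 5.67 to 6.51. Arrays measure RNA per sample, so fewer cells that make a transcript and less of it in each cell cannot be told apart.

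Promoter windows from RefSeq (GRCh38.p14, 250 bases before to 50 bases after the gene start) are shown for the 3 genes whose levels separated the lines most and for which a window was held and could be shown. Capitals mark matches, on either strand, to the motifs TATAAA (the TATA box), CCAAT (bound by NF-Y), GGGCGG (the GC box), TTTGAA (the CHR element of cell cycle genes) and CACGTG (an E-box), and to the AP-1 motif by name. CD44 and HMMR were higher in MDA-MB-468 and CEMIP was above the floor in MDA-MB-231 alone. The windows are chr11:35138921-35139220 (plus strand) for CD44, chr5:163460382-163460681 (plus strand) for HMMR and chr15:80779120-80779419 (plus strand) for CEMIP.
CD44: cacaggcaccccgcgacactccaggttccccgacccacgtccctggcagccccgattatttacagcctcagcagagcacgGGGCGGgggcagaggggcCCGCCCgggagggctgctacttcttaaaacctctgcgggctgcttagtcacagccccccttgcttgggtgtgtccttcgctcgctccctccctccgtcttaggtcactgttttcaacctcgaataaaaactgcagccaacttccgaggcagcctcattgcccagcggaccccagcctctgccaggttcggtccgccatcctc
HMMR: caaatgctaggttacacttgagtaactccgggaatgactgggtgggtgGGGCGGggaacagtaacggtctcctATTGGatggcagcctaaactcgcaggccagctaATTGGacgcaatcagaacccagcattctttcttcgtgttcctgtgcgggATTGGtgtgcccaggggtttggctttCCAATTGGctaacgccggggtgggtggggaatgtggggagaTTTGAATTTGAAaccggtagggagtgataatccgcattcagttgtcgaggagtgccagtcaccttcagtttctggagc
CEMIP: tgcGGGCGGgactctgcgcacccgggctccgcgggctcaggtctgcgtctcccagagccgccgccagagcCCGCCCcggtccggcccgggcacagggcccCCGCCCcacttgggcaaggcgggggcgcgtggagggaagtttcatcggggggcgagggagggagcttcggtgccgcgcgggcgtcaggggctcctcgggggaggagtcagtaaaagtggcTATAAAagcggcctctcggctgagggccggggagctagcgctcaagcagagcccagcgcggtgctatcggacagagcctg
The CD44 window held 2 GGGCGG matches and none of the other motifs. The HMMR window held 5 CCAAT matches, of which 1 pair on opposite strands overlapped, 2 adjoining TTTGAA matches and 1 GGGCGG. CEMIP had a TATAAA match, starting 30 bases before the gene start, and 3 GGGCGG matches. Over 35116 windows of the same length, 45% held GGGCGG, 34.6% CCAAT, 15.2% TTTGAA, 11.5% TATAAA, 7.71% the AP-1 motif and 7.26% CACGTG. These matches are letters in a window, and no binding was measured.

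HAS2, the synthase of the longest chains, had the lowest levels of its MDA-MB-231 arrays under OTX015 at every time. On the brighter probe (ILMN_1792978) the untreated arrays read 8.26, 7.99 and 7.82 at 4, 8 and 24 h and the DMSO arrays 7.99, 7.85 and 7.70. The OTX015 arrays of the same times read 7.20, 7.01 and 6.85. All 3 OTX015 values lay under all 6 undrugged values, and all 9 lay above the floor. Group means were 8.02 ± 0.22 untreated, 7.85 ± 0.15 with DMSO and 7.02 ± 0.17 with OTX015 (SD, n = 3 each). The log2 fold change against DMSO was -0.83 with a standard error of 0.070, which left 56.3% of the DMSO signal. Against the mean of both controls of the same time the values were -0.93 at 4 h, -0.91 at 8 h and -0.91 at 24 h, so the distance was already there at the first time. The background correction adds a constant of 50 to each signal before the logarithm, which makes changes of dim probes look smaller.

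The dimmer HAS2 probe (ILMN_1700935) ran in the same direction nearer the floor. It read 6.80, 6.54 and 6.41 untreated, 6.69, 6.60 and 6.45 with DMSO and 6.35, 6.36 and 6.04 with OTX015. The OTX015 array of 8 h was the only one of 3 above its floor. Its log2 fold change against DMSO was -0.33, and this probe too belongs to the contrast that picked the gene.

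HAS2 also read lower at later times without drug in MDA-MB-231, on both probes, short of a call. From 4 to 24 h the brighter probe changed by -0.37 ± 0.11 (SE, adjusted p = 0.0905) and the dimmer by -0.31 ± 0.084 (SE, adjusted p = 0.0728). In each of the 3 treatments the brighter probe had its highest value at 4 h and its lowest at 24 h. The transcript HAS2-AS1, made from the opposite strand of the HAS2 locus, had a log2 fold change of -0.20 ± 0.082 (SE, adjusted p = 0.229) with OTX015 and was not called.

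**Figure D1:**
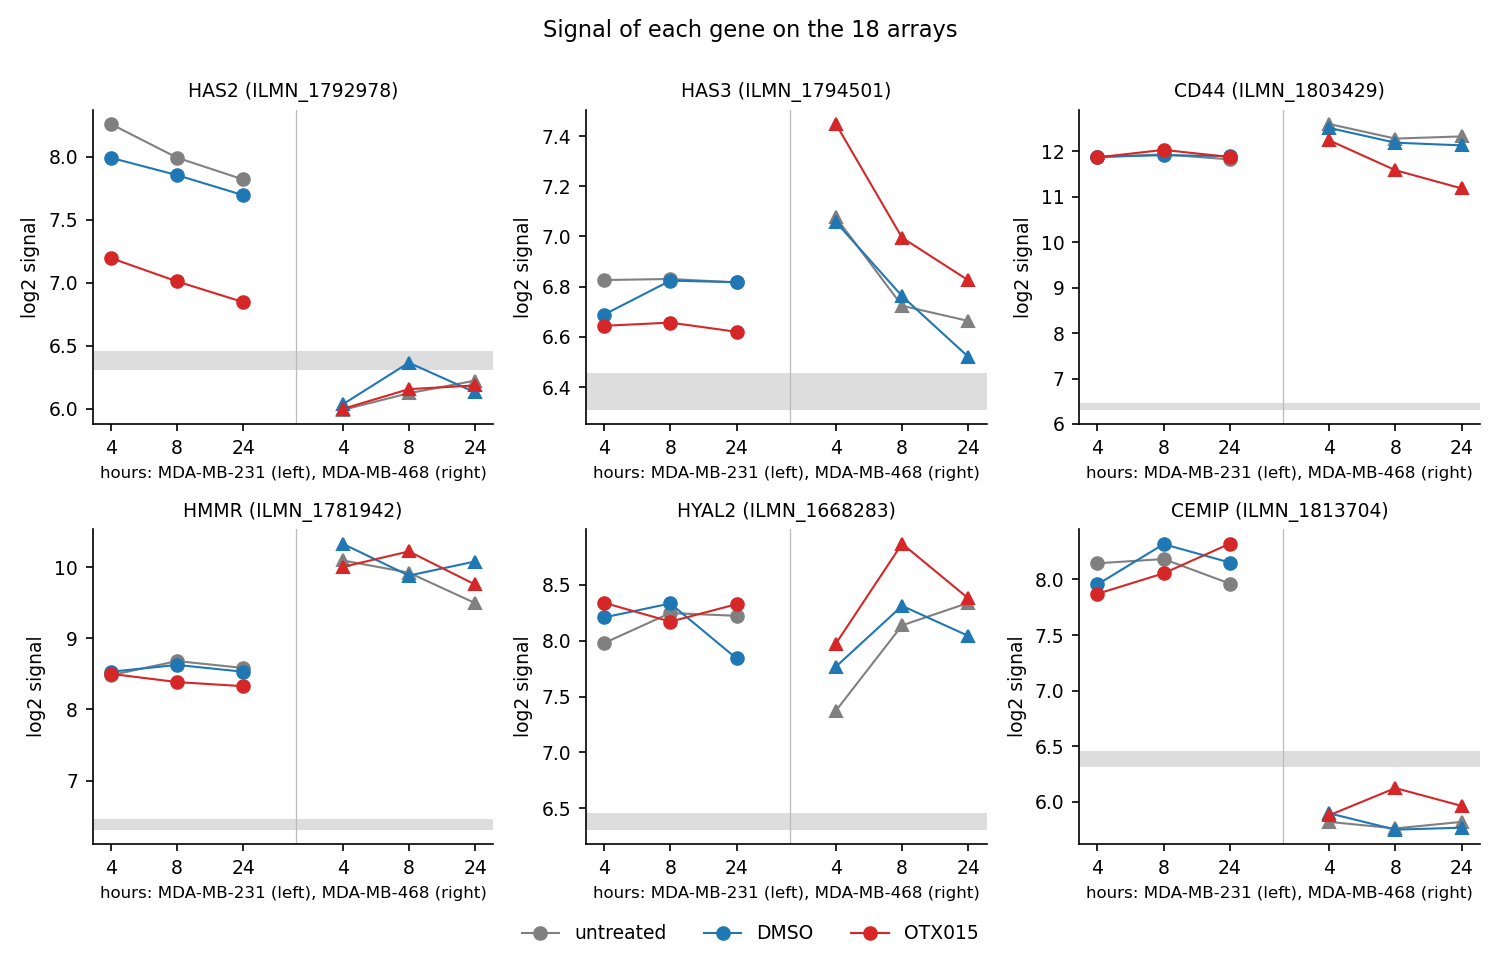
Log2 signal of the brightest tested probe of each of the 6 genes on all 18 arrays, by hours (4, 8, 24), with MDA-MB-231 as circles on the left of each panel and MDA-MB-468 as triangles on the right. Grey is untreated, blue DMSO and red OTX015, the grey band spans the floors of the arrays (6.31 to 6.46), and the vertical scales differ between panels. HAS2 with OTX015 lies between 6.85 and 7.20 in MDA-MB-231, under all undrugged arrays of that line.

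None of the other 5 genes was called with OTX015 in MDA-MB-231. Their 8 tested probes had log2 fold changes between -0.16 and 0.15 against DMSO, with adjusted p from 0.341 to 0.905, and 0 of 8 had an unadjusted p under 0.05. Over all 23631 probes limma called 0.427% in this comparison. CD44 is the clearest case, since its brightest probe (ILMN_1803429) read 11.82 to 11.93 over the 6 undrugged arrays and 11.86, 12.03 and 11.87 with OTX015. The 95% interval of its change was -0.12 to 0.18. CEMIP read 7.96 to 8.32 without drug and 7.87, 8.06 and 8.32 with it, and the interval of its change was -0.27 to 0.15. HYAL2 read 7.84 to 8.33 without drug and 8.34, 8.17 and 8.33 with it. HAS3, whose product makes shorter chains, read 6.69 to 6.83 without drug and 6.64, 6.66 and 6.62 with it. The OTX015 values of HAS3 lay under the undrugged ones at each time, but the change of -0.14 ± 0.071 (SE) had an adjusted p of 0.379.

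At single times against both controls in MDA-MB-231, no probe of these 5 genes was called either. Over all probes 0.559% were called at 4 h, 1.24% at 8 h and 1.19% at 24 h. The largest value of either sign was 0.29 for HYAL2 at 24 h (adjusted p = 0.373), followed by -0.27 for the brighter HMMR probe (ILMN_1781942) at 8 h (adjusted p = 0.177). With a single OTX015 array per time, these fits assume that it varies like the other arrays of the line.

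In MDA-MB-468 HAS2 stayed at the floor. The brighter probe lay between 5.99 and 6.37 on all 9 arrays, and only the DMSO array of 8 h passed its floor, so no fold with OTX015 is given. CEMIP lay between 5.75 and 6.12 and passed on no array. The genes that could be followed in this line were CD44, HMMR, HYAL2 and HAS3.

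CD44 was lower with OTX015 in MDA-MB-468, and the call depended on the time and the control. The brightest probe (ILMN_1803429) read 12.60, 12.28 and 12.33 untreated at 4, 8 and 24 h, and 12.51, 12.19 and 12.13 with DMSO. With OTX015 it read 12.24, 11.58 and 11.18. The 8 and 24 h values lay under all 6 undrugged arrays, whereas that of 4 h lay within their range. Averaged over the times, the log2 fold change against DMSO was -0.61 ± 0.15 (SE, 95% interval -0.95 to -0.27), with an adjusted p of 0.0568, so it was not called. With both controls pooled it was -0.67 (adjusted p = 0.0163), which passed.

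The second CD44 probe (ILMN_2348788) gave a like mean with a different course. Its values were 10.82, 10.43 and 10.45 untreated, 10.86, 10.48 and 10.18 with DMSO, and 10.38, 10.25 and 9.14 with OTX015. The 24 h OTX015 array was far under the rest. Its mean change against DMSO was -0.58 ± 0.19 (SE, adjusted p = 0.130). The third and dimmest probe (ILMN_1778625) read 7.47 to 8.33 over the undrugged arrays and 7.73, 7.14 and 7.67 with OTX015, and only that of 8 h lay outside the undrugged range. The 3 probes carry different transcript accessions of CD44, whose RNA is spliced in many forms, and here they need not report the same ones.

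Set against both controls of the same time, CD44 fell in MDA-MB-468 by 24 h on 2 of its 3 probes. The brightest probe had -0.32 at 4 h (adjusted p = 0.107), then fell by 0.65 at 8 h (adjusted p = 0.00844) and by 1.04 at 24 h (adjusted p = 0.00159). The second probe had -0.46 at 4 h, under the minimum for a call, and -0.21 at 8 h, and fell by 1.17 at 24 h (adjusted p = 0.00134), a 2.25-fold change. The third had -0.36, -0.33 and -0.33 and was called at no time. Of the 7 probes above the floor in this line, 0 were called at 4 h, 2 at 8 h and 2 at 24 h, beside 13.4%, 13.6% and 10.8% of all probes. With median scaling in place of quantile normalization the 24 h value of the brightest probe was -0.76 (adjusted p = 0.0608) and no longer passed, and that of the second still did (-0.97). Under the same scaling the 8 h value of the brightest probe was -1.50, and both other probes passed at 4 and 8 h as well. That scaling also moved the median of all probes to -0.15 at 4 h and -0.32 at 8 h, where it called 7020 probes lower and 59 higher. The 8 h values rest on the dimmest array, whose part in them was not tested.

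**Figure D2:**
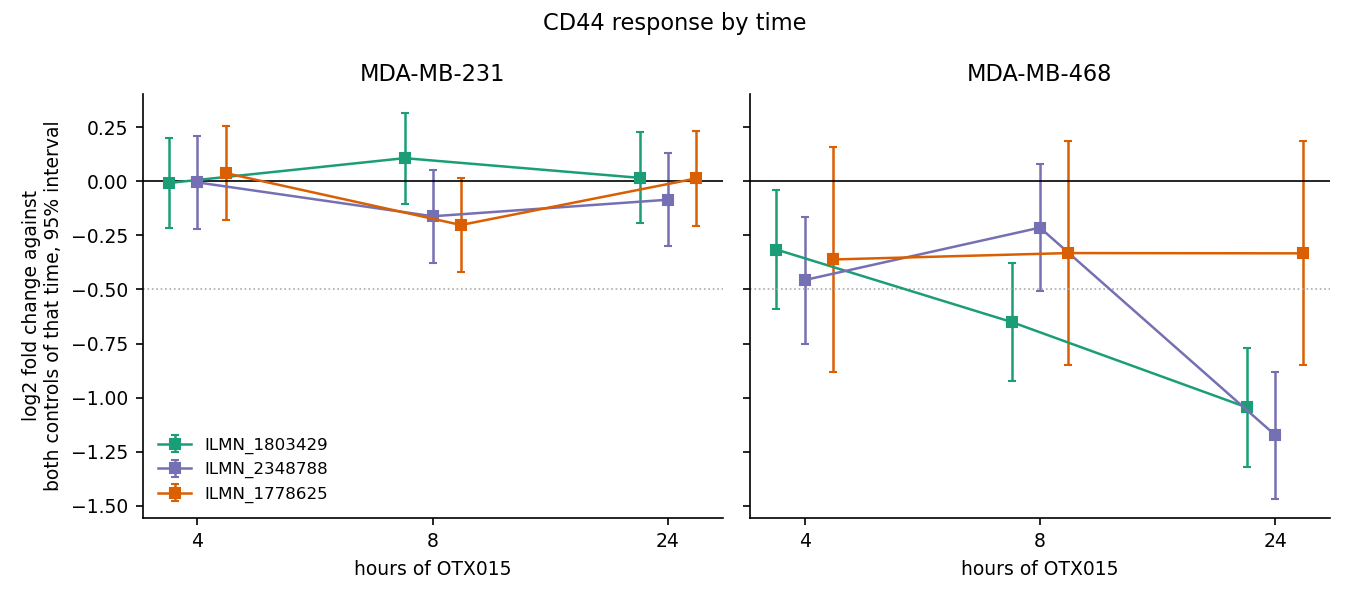
Log2 fold change of the 3 CD44 probes (colours) with OTX015 against the averaged undrugged arrays of the same time, at 4, 8 and 24 h, with 95% intervals, MDA-MB-231 left and MDA-MB-468 right. The dotted line marks the minimum for a call, -0.5. At 24 h in MDA-MB-468 ILMN_1803429 is at -1.04 and ILMN_2348788 at -1.17, while ILMN_1778625 stays at -0.33.

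HYAL2, the membrane-anchored hyaluronidase, rose with OTX015 at 1 time in MDA-MB-468. Its values were 7.37, 8.14 and 8.34 untreated, 7.77, 8.31 and 8.04 with DMSO and 7.97, 8.87 and 8.38 with OTX015. The OTX015 array was the highest of the 3 at each time, with 24 h close to the untreated one. The mean change against DMSO was 0.37 ± 0.15 (SE, adjusted p = 0.214). At 8 h against both controls it was 0.64 (adjusted p = 0.0427) and called, but it was -0.11 under median scaling, where the median of all tested probes also moved, from -0.02 to -0.32.

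HAS3 read higher with OTX015 than on either control array of each time in MDA-MB-468, short of a call, and at 8 h the order turned under median scaling (-0.10). It read 7.08, 6.72 and 6.66 untreated, 7.06, 6.76 and 6.52 with DMSO and 7.45, 7.00 and 6.83 with OTX015. The mean change against DMSO was 0.31 ± 0.088 (SE, adjusted p = 0.0885), and those at 4, 8 and 24 h against both controls were 0.38, 0.25 and 0.23. HAS3 also declined with time without drug, by a log2 difference of -0.48 from 4 to 24 h (adjusted p = 5.54e-04), again under the minimum for a call.

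HMMR, whose RNA is made mainly in dividing cells, had no called response in either line. The brighter probe (ILMN_1781942) read 9.50 to 10.33 over the undrugged arrays of MDA-MB-468 and 10.01, 10.23 and 9.76 with OTX015, all within that range. The other probe (ILMN_2409220) read 9.40 to 9.79 without drug and 9.71, 9.22 and 9.39 with it. At 8 h its change of -0.47 passed on adjusted p (0.0453) but not on size, while the brighter probe was at 0.32 at that time, so the 2 probes of the gene pointed in opposite directions. Under median scaling the first of these was -1.19 and passed, with the median of all probes at -0.32. Of 20 mitosis genes listed beside HMMR, 3 fell with OTX015 against DMSO in MDA-MB-468, which were AURKA at -0.68, TPX2 at -0.62 and CENPF at -0.61, and the median of the list was -0.30 beside -0.01 over all probes, of which 4.38% were called. Under median scaling no probe on the array passed in this comparison, and the 3 genes were at -0.97, -0.94 and -0.92. At 24 h against both controls 7 of the 20 fell, beside 10.8% called over all probes in either direction, and the 2 HMMR probes were at -0.03 and -0.13.

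In all, 0 of the 7 probes above the floor in MDA-MB-468 were called there for OTX015 against DMSO, where limma called 4.38% of all probes. At an unadjusted p under 0.05 there were 4 of the 7, a looser cut with no share over all probes given here. That count therefore cannot be set against the rest of the array. Vehicle alone gave no call. DMSO against untreated had 0 called probes in each line (0% of those tested), with 648 at an unadjusted p under 0.05 in MDA-MB-231 but 98 in MDA-MB-468. Among the 10 probes its values ran from -0.25 to 0.26, and HAS2 in MDA-MB-231 was the only gene with an unadjusted p under 0.05, at -0.18 on the brighter probe.

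**Figure D3:**
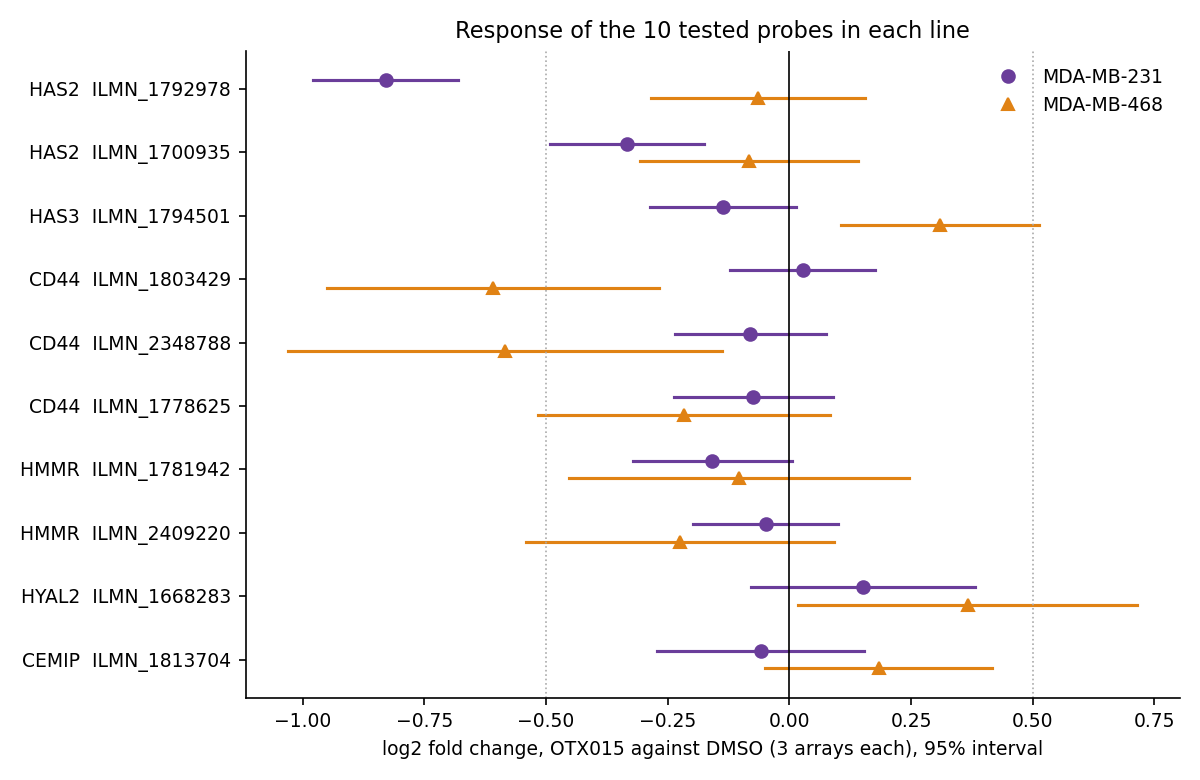
Log2 fold change with OTX015 against DMSO (3 arrays each) for the 10 tested probes, with 95% intervals, MDA-MB-231 as purple circles and MDA-MB-468 as orange triangles. Dotted lines mark the minimum for a call, 0.5 in either direction. The brighter HAS2 probe is at -0.83 in MDA-MB-231, and the 2 brighter CD44 probes are at -0.61 and -0.58 in MDA-MB-468.

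The difference between the 2 responses, which also differ in dose, was tested in 1 fit of all 18 arrays. Limma called 1.90% of all probes, and 1 of the 10, the brighter HAS2 probe at 0.77, which the choice of the gene had fixed and whose MDA-MB-468 side lay at the floor. For CEMIP no difference is given, since it was at the floor in MDA-MB-468. For HAS3 the response of MDA-MB-468 minus that of MDA-MB-231 was 0.45 ± 0.10 (SE, adjusted p = 0.0430), under the minimum for a call. Under median scaling it was 0.25 (adjusted p = 0.395). The brightest CD44 probe had -0.64 ± 0.16 (SE, adjusted p = 0.0683), and the second -0.50 (adjusted p = 0.285). HYAL2 and HMMR had differences between -0.18 and 0.22, with adjusted p of 0.661 or more.

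Without drug the lines differed most in CEMIP, HAS2 and HMMR. Of the 7 tested probes above the floor in both lines 4 were called, all higher in MDA-MB-468, and 34.2% of all probes were called in this comparison. The HAS2 probes and CEMIP entered the fit through MDA-MB-231 alone, so they are given as lower bounds and carry no test. CEMIP averaged 8.12 ± 0.14 (SD, n = 6) in MDA-MB-231 and was at least 3.44-fold lower in MDA-MB-468, where it did not reach the floor. HAS2 averaged 7.94 ± 0.19 and 6.14 ± 0.14 (SD, n = 6) on the brighter probe, which was at least 3.01-fold higher in MDA-MB-231 with the floor in place of lower signals. The dimmer probe was at least 1.19-fold higher there. Its OTX015 arrays in MDA-MB-231, at 6.85 to 7.20, still lay above all MDA-MB-468 arrays.

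HMMR was higher in MDA-MB-468 on both probes. The brighter averaged 8.57 ± 0.073 in MDA-MB-231 against 9.97 ± 0.28 in MDA-MB-468 (SD, n = 6), a difference of 1.40 ± 0.082 (SE, adjusted p = 1.03e-09), and the other differed by 1.62 ± 0.057 (SE, adjusted p = 3.10e-12). Of the mitosis genes 7 of 20 were lower in MDA-MB-468 and 1 was higher, a share near the 34.2% called over all probes, and their median was -0.35.

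CD44 was higher in MDA-MB-468 on all 3 probes, by amounts that differed between them. The dimmest differed by 1.24 ± 0.086 (SE, adjusted p = 6.56e-09) and the second by 0.78 ± 0.053 (SE, adjusted p = 5.69e-09). The brightest differed by 0.46 ± 0.049 (SE, adjusted p = 1.05e-06), under the minimum for a call. ESRP1, an epithelial splicing factor that acts on CD44 RNA, was at least 2.39-fold higher in MDA-MB-468. It changed there by -0.52 from 4 to 24 h without drug, where 13.2% of all probes were called. With OTX015 against both controls it had -0.62, -0.00281 and -0.21 at 4, 8 and 24 h, beside 13.4% of all probes called at 4 h. The -0.52 and the -0.62 both use the undrugged 4 h arrays that stood apart. Its part in the differences between CD44 probes was not tested. After 24 h of OTX015 the brightest CD44 probe, at 11.18 in MDA-MB-468, lay under all 9 MDA-MB-231 arrays of that probe, which ran from 11.82 to 12.03.

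HAS3 and HYAL2 did not separate the lines. HAS3 averaged 6.80 ± 0.055 in MDA-MB-231 against 6.80 ± 0.22 in MDA-MB-468 (SD, n = 6), and the 95% interval of the difference was -0.10 to 0.10. HYAL2 averaged 8.14 ± 0.19 and 7.99 ± 0.37 (SD, n = 6), with an interval of -0.33 to 0.04, and its sign turned without the 4 h arrays (0.05). Under median scaling the 2 differences were 0.11 and 4.44e-04.

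**Figure D4:**
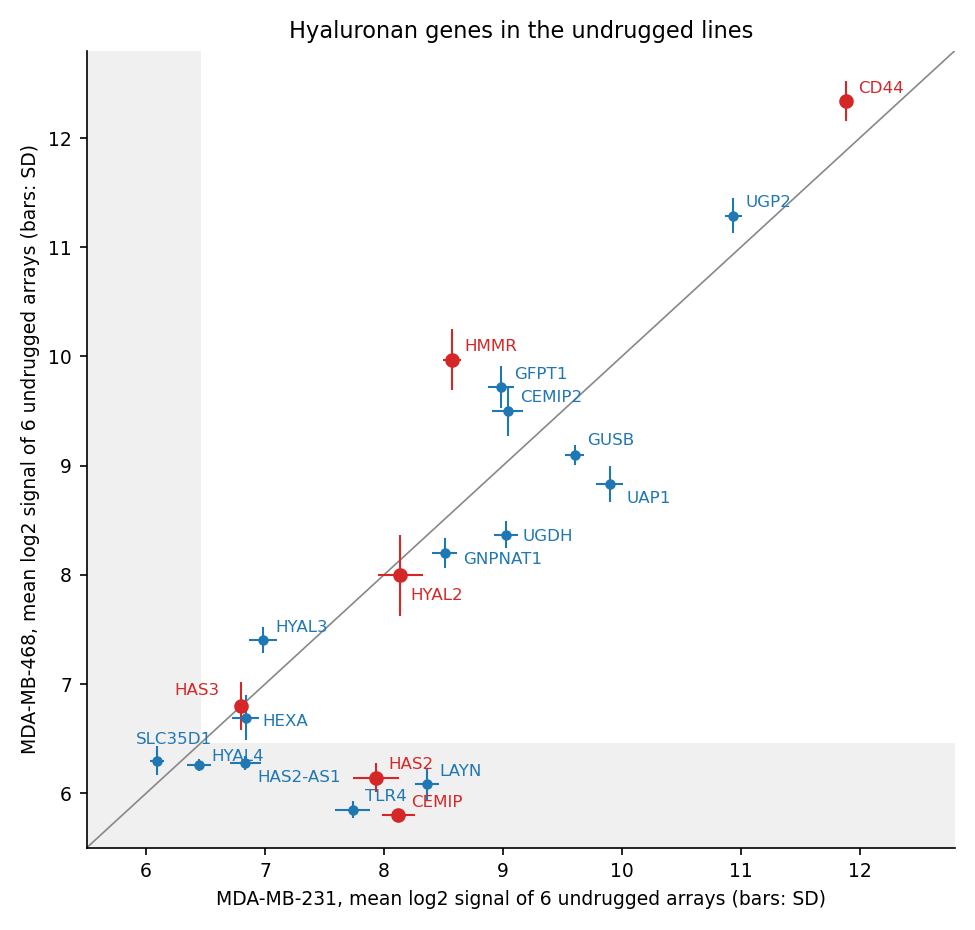
Mean log2 signal over the 6 undrugged arrays (untreated and DMSO) of MDA-MB-231 (horizontal) and MDA-MB-468 (vertical) for genes of hyaluronan synthesis, precursors, degradation and receptors, 1 probe per gene, with SD bars. The 6 genes are red and the others blue, the line marks equal signal and grey shading covers signals under the highest floor (6.46). CEMIP and HAS2 lie in the shaded strip for MDA-MB-468 at 5.80 and 6.14, and HMMR lies above the line.

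Between 24 and 4 h without drug 0 of 10 probes were called in MDA-MB-231, beside 0.741% of all probes. Of these 10, 2 had an unadjusted p under 0.05, both of HAS2, a looser cut with no share given here, so it cannot be set against the rest of the array. In MDA-MB-468 2 of the 7 probes above the floor were called, beside 13.2% of all probes. From 4 to 24 h HYAL2 rose by 0.62 ± 0.15 (SE, adjusted p = 0.00592) and the second CD44 probe fell by 0.53 ± 0.092 (SE, adjusted p = 6.39e-04). Both rest on the 4 h arrays that stood apart. Between 8 and 24 h the same 2 probes changed by -0.03 and -0.15 and neither was called.

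Other genes of the pathway were called with OTX015 at single times alone, not against DMSO. Of 6 measured enzymes that make or carry the sugar precursors, of 8 listed, 0 were called against DMSO in either line. Limma called 0.427% of all probes there for MDA-MB-231 but 4.38% for MDA-MB-468. At such shares a count of 0 among so few genes does not set them apart. UAP1, which makes the activated glucosamine, came nearest in MDA-MB-468 at 0.50 ± 0.13 (SE, adjusted p = 0.0733), and at 4 and 8 h against both controls it rose by 0.64 and 0.68, which became 0.27 and -0.12 under median scaling. GFPT1, the entry enzyme of that route, rose by 0.67 at 8 h, which became -0.15. Of 7 measured genes of hyaluronan degradation, of 11 listed, 0 were called against DMSO, a count with the same limit. CEMIP2 (also called TMEM2), a membrane relative of CEMIP, had 0.54 ± 0.14 (SE, adjusted p = 0.0618) in MDA-MB-468 and rose there by 0.77 at 8 h and 0.73 at 24 h against both controls, which became -0.06 and 0.94 under median scaling. At 24 h it still passed. These calls at single times stand beside many others in that line, where 13.4% of all probes were called at 4 h, 13.6% at 8 h and 10.8% at 24 h.

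Among 8 measured hyaluronan-binding matrix proteins, of 18 listed, 0 were called against DMSO, beside 0.427% (MDA-MB-231) and 4.38% (MDA-MB-468) of all probes. VCAN (versican) in MDA-MB-231 had -0.49 ± 0.084 (SE, adjusted p = 0.00540), just short of the minimum, and fell by 0.63 at 24 h against both controls, a call lost under median scaling (-0.66, adjusted p = 0.0860). Its OTX015 arrays in that line all lay under the floor, against 0 of 6 undrugged ones. HABP4, of the same list, an RNA-binding protein named for binding hyaluronan, rose by 0.65 at 24 h against both controls in MDA-MB-468 (adjusted p = 0.00881), a call lost under median scaling (0.71, adjusted p = 0.0608). In MDA-MB-231 it had 0.41 at that time (adjusted p = 0.0557). The medians over these lists against DMSO lay between -0.05 and 0.18, beside -0.00232 (MDA-MB-231) and -0.01 (MDA-MB-468) over all probes.

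The lines themselves differed in other receptors too. LAYN (layilin) was at least 4.06-fold and TLR4 at least 2.63-fold higher in MDA-MB-231, and both were above the floor on all 6 undrugged arrays there and on 0 of 6 in MDA-MB-468. UAP1 and UGDH, which makes the glucuronic acid precursor, were lower in MDA-MB-468 with log2 differences of -1.07 and -0.66 (UGDH -0.48 under median scaling, short of a call), and GFPT1 was higher by 0.73. HAS2-AS1 differed in the same direction as HAS2, by -0.56, with 2 of 6 undrugged MDA-MB-468 arrays above the floor. Of the 4 measured receptors, of 8 listed, LAYN and TLR4 were at the floor in MDA-MB-468, HMMR was higher there, and CD44 was higher on its 2 dimmer probes, beside the 34.2% of all probes called.

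The patterns most like these genes were found by Pearson's r between arrays of 1 line, given as a description, since the 9 arrays share treatments and times. Over the 9 MDA-MB-231 arrays the probes nearest to HAS2 were those of IL24 (r = 0.996), RGS7 (0.986), LYPD1 (0.981), TIPIN (0.977) and AURKA (0.977). Their log2 fold changes with OTX015 against DMSO there ran from -0.75 for RGS7 to -0.24 for AURKA. Over the 9 MDA-MB-468 arrays the probes nearest to the brightest CD44 probe were those of CYP4Z1 (r = 0.990), S100A3 (0.986), GATB (0.985), MYO5C (0.981) and ANO1 (0.979), with log2 fold changes from -0.84 to -0.42. HMMR had looser neighbours in that line, FGL1 (r = 0.949), TAF3 (0.948), ERI2 (0.939), SNAP91 (0.924) and BRK1 (0.923), and of these SNAP91 was above the floor on 0 of the 9 arrays and TAF3 on 2.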

How the data were processed

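RNA of 18 samples was hybridised to Illumina HumanHT-12 v4 bead arrays, 1 array each. The authors deposited mean probe intensity values on a linear scale (55.2 to 17268), with GenomeStudio (version not given) named in the submitters' processing notes, and a second table of log2 values normalized between arrays (6.29 to 14.2). How the log2 table was made is not given in the sources used here (the median absolute difference to uncorrected, quantile-normalized intensities was 0.00533 on the log2 scale), and it served as an alternative. It ranks probes on each array as the intensities do. Doses come from the study's methods.

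Intensities were corrected with the normexp model (offset 50) and quantile-normalized in limma 3.58.1 (R 4.3.3), on the log2 scale. The intensity table held no detection p-values, so the 95th percentile of 457 olfactory receptor probes served as floor. Of 47231 probes 30113 carry 1 gene symbol, from GEO's platform annotation updated by gene identifier through RefSeq, 8 several and 17110 none. OTX015 was compared with DMSO in limma on the 9 arrays of a line with time as a term (untreated arrays inform the spread). The difference between lines used 18 arrays with time within line, and undrugged comparisons used 12 arrays. A probe above the floor on all 6 undrugged arrays of 1 line and on at most 1 of the other got a lower bound as fold, with the floor in place of lower signals. Where single times were tested, both controls of that time were pooled.

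The members and lists were chosen with earlier results of these data known. All member probes were named, with up to 4 genes per list among those called in a comparison and the 5 nearest probes by Pearson's r. List genes were represented by their brightest tested probe. The fits were tested on simulated data. Alternatives varied background correction, normalization, filter, controls, time term, moderation, weights and arrays, and the following were chosen after seeing the data: 24 h against 8 h, the processing of the single times and the scaling of list genes.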

Additional observations from a re-analysis of the deposited data

Results flagged for a closer look

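HAS3 on the DMSO array of 4 h in MDA-MB-231 read 6.69, where the other 5 undrugged arrays of that line read 6.82 to 6.83, a gap large for the spread of the group. The gap made up 0.903 of the range of the 6 values. This array was picked out of 20 groups of 6 undrugged arrays examined, and how often scatter alone gives a gap this large among them was not tested.

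The difference between the lines in the response of HAS3 was 0.45 (adjusted p = 0.0430, limma), under the minimum for a call, and ran from 0.25 to 0.63 over 9 alternatives (adjusted p 0.0326 to 0.395). It missed 0.05 under median scaling and without the arrays of any single time. On the levels, OTX015 values lay under both controls at each time in MDA-MB-231 and over them at each time in MDA-MB-468, except at 8 h under median scaling (-0.10). The response of the brighter HAS2 probe differed by 0.77, which follows from the choice of the gene, with its MDA-MB-468 side at the floor.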

How the results depend on the processing

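HAS2 on its brighter probe kept its direction against DMSO in MDA-MB-231 under all 25 alternatives (-1.04 to -0.64). These reuse the arrays that picked the gene, so they describe the processing and lend the fall no support. The count of called probes in that comparison was 1, HAS2 itself, and became 2 with an offset of 16. In MDA-MB-468 the count of 0 became 1 with the deposited log2 table, untreated or both controls, or trended robust moderation, and 2 with array weights or 1 fit of 18 arrays, each time from CD44, and 0 to 1 when arrays were left out. The brightest CD44 probe passed there without the 4 h arrays (-0.78, adjusted p = 0.0339) or without the OTX015 array of 4 h (-0.79, adjusted p = 0.00795), and its values over 25 alternatives ran from -0.83 to -0.42 (adjusted p 0.00327 to 0.353). For the difference between lines the count of 1 became 2 with an offset of 16 or the deposited table and 0 to 1 when a time was left out. It was 0 without the 8 h or the 24 h arrays. Median scaling kept it at 1, with the second CD44 probe in place of HAS2. For 24 against 4 h in MDA-MB-468 the count of 2 became 1 with the deposited table, 6 with median scaling and 0 for 24 against 8 h, where the third CD44 probe turned to 0.53 and HYAL2 to -0.0338.

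At single times in MDA-MB-231 the count was 1, HAS2, which was picked for its fall in that line. That count became 0 with median scaling at 4, 8 and 24 h and 0 with an offset of 16 at 4 and 8 h. In MDA-MB-468 median scaling gave 2 at 4 h, 4 at 8 h and 1 at 24 h in place of 0, 2 and 2, and HAS3 and HYAL2 turned to -0.10 and -0.11 at 8 h. It moved the median of all tested probes there from -0.02 to -0.32 at 8 h, and from -0.05 to -0.34 for 24 against 4 h. Between undrugged lines HAS3 was 0.00226 without background correction, 0.11 with median scaling and -0.15 to 0.11 with a time left out (0.0419 without 8 h), and HYAL2 was 4.44e-04 with median scaling and -0.29 to 0.0466 with a time left out. No time term (no replicate block) kept both counts against DMSO, at 1 and 0. Of 475 single values recomputed, 422 kept direction and side of the thresholds. A further 69 values with an unadjusted p of 0.05 or more passed in no alternative, and 30 of them changed sign in at least 1. The comparisons with OTX015 were paired by time through the time term, since the labels give no replicate numbers. Probes near the floor limit HAS2 and CEMIP in MDA-MB-468, and 1 array per condition limits every single time.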
